A study of Mus musculus with 12 samples.

Results

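The 10 genes described here are 6 secreted signals, Wnt2, Wnt9b, Rspo3, Hgf, Bmp2 and Bmp6, and 4 genes of the Wnt response, Glul, Axin2, Lgr5 and Tbx3. They were taken by symbol from the gene lists of a single-cell RNA sequencing series on mouse liver, which held 31053 genes at embryonic stage E16.5 and 22597 at postnatal day 3 (P3), and all 10 were present at both stages. Dissociated liver cells had been captured in droplets, and each captured transcript was counted once by its unique molecular identifier (UMI). The mice were offspring of Jag1Ndr/+ parents and carried 0, 1 or 2 copies of the germline Nodder allele (Jag1Ndr) of Jag1, a Notch ligand gene, so the allele was present in every cell type and not in a chosen lineage. The series' design text gives 2 individuals for each genotype and stage. At E16.5, 5 separate libraries were used: Jag1+/+ replicate 1, Jag1Ndr/+ replicate 1, Jag1Ndr/Ndr replicates 1 and 2, and a library deposited both as Jag1+/+ replicate 2 and as Jag1Ndr/+ replicate 2, called the shared library here. At P3, 4 libraries were used. Library C carried only the Jag1Ndr/Ndr label and library D only the Jag1Ndr/+ label. The barcodes of libraries A and B were deposited under more than 1 genotype label, so their genotype is unclear. Per the labels' protocols, homozygous P3 pups were picked by their jaundice, dead cells were removed, and TrypLE digestion was used at E16.5 only.

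Endothelial cells of the liver secrete signals, called angiocrine signals, that act on the hepatocytes beside them. Wnt2 and Wnt9b are Wnt ligands of sinusoidal and central vein endothelium. Rspo3 is an R-spondin: it binds Lgr receptors, keeps Wnt receptors at the cell surface and so strengthens a Wnt signal. Wnt ligands and R-spondins maintain the hepatocytes around the central vein, which express Glul (glutamine synthetase), Axin2 (a feedback inhibitor of the Wnt pathway), Lgr5 (an R-spondin receptor) and Tbx3 (a transcription factor). Hgf, hepatocyte growth factor, acts through the receptor Met and is known from stellate cells, the vitamin A storing pericytes of the sinusoid. Bmp2 and Bmp6 are endothelial ligands that induce Hamp, the gene for the iron hormone hepcidin, in hepatocytes.

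In GRCm38 coordinates of GENCODE M21, the signal genes lie at chr6:17988940-18030585 on the minus strand (Wnt2), chr11:103727364-103749821 on the minus strand (Wnt9b), chr10:29452416-29535867 on the minus strand (Rspo3), chr5:16553495-16620152 on the plus strand (Hgf), chr2:133552159-133562885 on the plus strand (Bmp2) and chr13:38345107-38500302 on the plus strand (Bmp6). Glul lies at chr1:153899944-153909723 and Axin2 at chr11:108920349-108950783, both on the plus strand. Lgr5 lies at chr10:115450311-115587780 on the minus strand and Tbx3 at chr5:119670669-119684724 on the plus strand. All 10 are annotated as protein coding. Promoter sequences from RefSeq (GRCm38.p6) were used for 6 of the 10 genes, and the 250 bases before the start are printed for the pair of Wnt ligands, which were higher at P3 in the same class, and for Glul, the Wnt target that was higher at P3 in hepatocyte-like cells. Capitals mark a GATA match, and each sequence reads 5′ to 3′ on the gene's strand. Those of Wnt2 and Wnt9b are from the minus strand at chr6:18030446-18030695 and chr11:103749822-103750071, and that of Glul is from the plus strand at chr1:153899679-153899928. The RefSeq start of Wnt2 lies inside the GENCODE gene.
Wnt2: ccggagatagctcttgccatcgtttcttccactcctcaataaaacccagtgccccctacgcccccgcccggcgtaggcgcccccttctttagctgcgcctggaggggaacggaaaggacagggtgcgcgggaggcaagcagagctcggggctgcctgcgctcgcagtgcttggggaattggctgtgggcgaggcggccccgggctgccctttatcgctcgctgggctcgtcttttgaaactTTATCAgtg
Wnt9b: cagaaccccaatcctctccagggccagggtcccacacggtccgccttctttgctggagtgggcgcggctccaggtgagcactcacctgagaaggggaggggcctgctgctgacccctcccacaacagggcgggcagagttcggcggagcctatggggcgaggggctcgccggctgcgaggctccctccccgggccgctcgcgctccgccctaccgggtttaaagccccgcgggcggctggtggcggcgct
Glul: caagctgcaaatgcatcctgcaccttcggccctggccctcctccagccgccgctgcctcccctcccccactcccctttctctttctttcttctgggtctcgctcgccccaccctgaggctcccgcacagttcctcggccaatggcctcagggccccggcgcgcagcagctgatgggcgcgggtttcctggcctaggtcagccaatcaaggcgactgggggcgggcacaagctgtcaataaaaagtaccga
Searched on both strands, the TCF/LEF letters CTTTGA and CTTTGT were found in no promoter of these 6 genes, while 27.6% of all 32851 RefSeq promoters of this length held at least 1. The GATA letters AGATAA and TGATAA, whose first bases TGA can overlap the end of CTTTGA, were found once, in the Wnt2 promoter, where the match on the opposite strand starts 9 bases before the start. The same GATA letters were in 16.6% of all promoters.

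The barcodes kept (1000 UMIs or more, mitochondrial share up to 15%) numbered 15024 to 29034 per library, with a median depth of 5325 to 9256 UMIs at E16.5 and 2961 to 6235 at P3. The matrices deposited for the shared library were identical over 23166 barcodes, and P3 matrices that overlapped shared 53.4% to 100% of the smaller one's barcodes. The 9 libraries used here shared at most 0.94% of barcodes in any pair, and A and C shared none because A's barcodes had been taken out of C. After likely doublets and sub-clusters led by other cell types were removed once, there were 457 endothelial-like cells at E16.5 and 248 at P3, 234 and 130 mesenchymal-like cells, and 537 and 518 hepatocyte-like cells. All 12 endothelial markers were detected in endothelial-like cells, with a summed level of 5423 to 7817 CPM (UMI counts scaled to the same total in every library) at E16.5 and 12290 to 15060 CPM at P3. Clustered again, these cells still held sub-clusters that met the same removal rule: 135 of the endothelial-like cells at E16.5 and 102 at P3 (with Alb and Apoa2 among the leading genes), 156 and 67 of the mesenchymal-like cells, which is most of that class, and 157 and 208 of the hepatocyte-like cells. The hepatocyte-like ones were led by globin genes at E16.5 and by Pf4, a platelet gene, and globin genes at P3, where 165 of the 208 came from library A. Depth differed: the median was 10310 UMIs per endothelial-like cell at E16.5 and 3428 at P3, and 19610 against 2503 per hepatocyte-like cell. Erythroid marker transcripts took 10.9% to 20.7% of endothelial-like UMIs at E16.5 and 0.798% to 10.4% at P3. At P3, libraries C and D stood apart from A and B: of the 102 cells in the largest endothelial-like sub-cluster 59 came from A and 37 from B, and of the 93 cells in the next 41 came from C and 51 from D. Stage differed together with the digestion, the gene list, the software version, the depth and the mix of genotypes, and these cannot be told apart. No label says that libraries of a group came from separate litters, so p-values cover only the spread between these libraries. CPM divide by all UMIs of a class in a library, whereas log2 changes (fold changes on the log2 scale) come from counts scaled by TMM factors, so the 2 scales differ by a constant per library. CPM are compared across samples and not between genes.

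Bmp2, Wnt2 and Wnt9b were signals of the endothelial-like cells, Rspo3 was high in mesenchymal-like as well as endothelial-like cells, and Hgf was high in basophil and mast-like cells and in mesenchymal-like cells. Bmp2 averaged 428 ± 104 CPM (SD, n = 5 libraries) in endothelial-like cells at E16.5 and 613 ± 156 CPM (n = 4) at P3, with a lowest library of 284 CPM. In no library of another class with at least 20 cells did it exceed 42.6 CPM. Wnt2 averaged 35.4 ± 8.35 CPM in endothelial-like cells at E16.5 and 189 ± 72.0 CPM at P3, against 14.6 ± 7.64 and 29.2 ± 18.0 CPM in mesenchymal-like cells. The endothelial-like and mesenchymal-like ranges of Wnt2 touched at E16.5, with a lowest endothelial-like library of 23.7 CPM and a highest mesenchymal-like library of 23.9 CPM, and were apart at P3. Wnt9b had 11 UMIs in endothelial-like cells at E16.5 and 2 in erythroid-like cells, and 28 in endothelial-like cells at P3 and 1 in neutrophil-like cells. It was at 0 UMIs in mesenchymal-like and hepatocyte-like cells.

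Rspo3 averaged 109 ± 34.6 CPM in mesenchymal-like cells at E16.5, above every endothelial-like library, where the mean was 45.7 ± 13.1 CPM. At P3 the order could not be read, since the mesenchymal-like mean of 122 ± 35.4 CPM (n = 3) lay inside the endothelial-like range of 48.9 to 689 CPM. Hgf averaged 209 ± 62.6 CPM in basophil and mast-like cells and 103 ± 38.6 CPM in mesenchymal-like cells at E16.5, and the lowest basophil and mast-like library, at 146.9 CPM, was just above the highest mesenchymal-like one, at 143.6 CPM. At P3, Hgf stood at 199 ± 28.9 CPM in basophil and mast-like cells, 115 ± 16.7 CPM in mesenchymal-like cells and 74.8 ± 52.8 CPM in endothelial-like cells, and the last 2 overlapped. Bmp6 was low everywhere. Its endothelial-like level was 10.1 ± 4.63 CPM at E16.5, above all other classes, and 9.39 ± 14.6 CPM at P3, where the mesenchymal-like level of 19.7 ± 15.2 CPM overlapped it.

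A gene was counted as highest in a class when it had at least 20 UMIs and every library of that class exceeded every library of all other classes. At E16.5, that held for 7 members. Bmp2 and Bmp6 were highest in endothelial-like cells, as were 2.88% of the 16579 genes tested. Rspo3 was highest in mesenchymal-like cells (2.79% of genes), Hgf in basophil and mast-like cells (0.663%), Tbx3 in hepatocyte-like cells (5.28%), Glul in macrophage-like cells (1.72%) and Lgr5 in B-like cells (1.39%). At P3, it held for 5 members: Wnt2 and Bmp2 in endothelial-like cells (3.74% of 14393 genes), Hgf in basophil and mast-like cells (1%), Glul in macrophage-like cells (2.42%) and Lgr5 in B-like cells (2.01%). These are descriptions with no test. The place of Hgf holds for the mixed mesenchymal-like class without library D (409 CPM at P3, too few cells). In the stellate-marked sub-cluster described further on, Hgf ranged from 109 to 229.5 CPM at E16.5, overlapping the basophil and mast-like range of 146.9 to 277 CPM, and from 486 to 1113 CPM at P3, above that of 171 to 239 CPM.

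**Figure D1:**
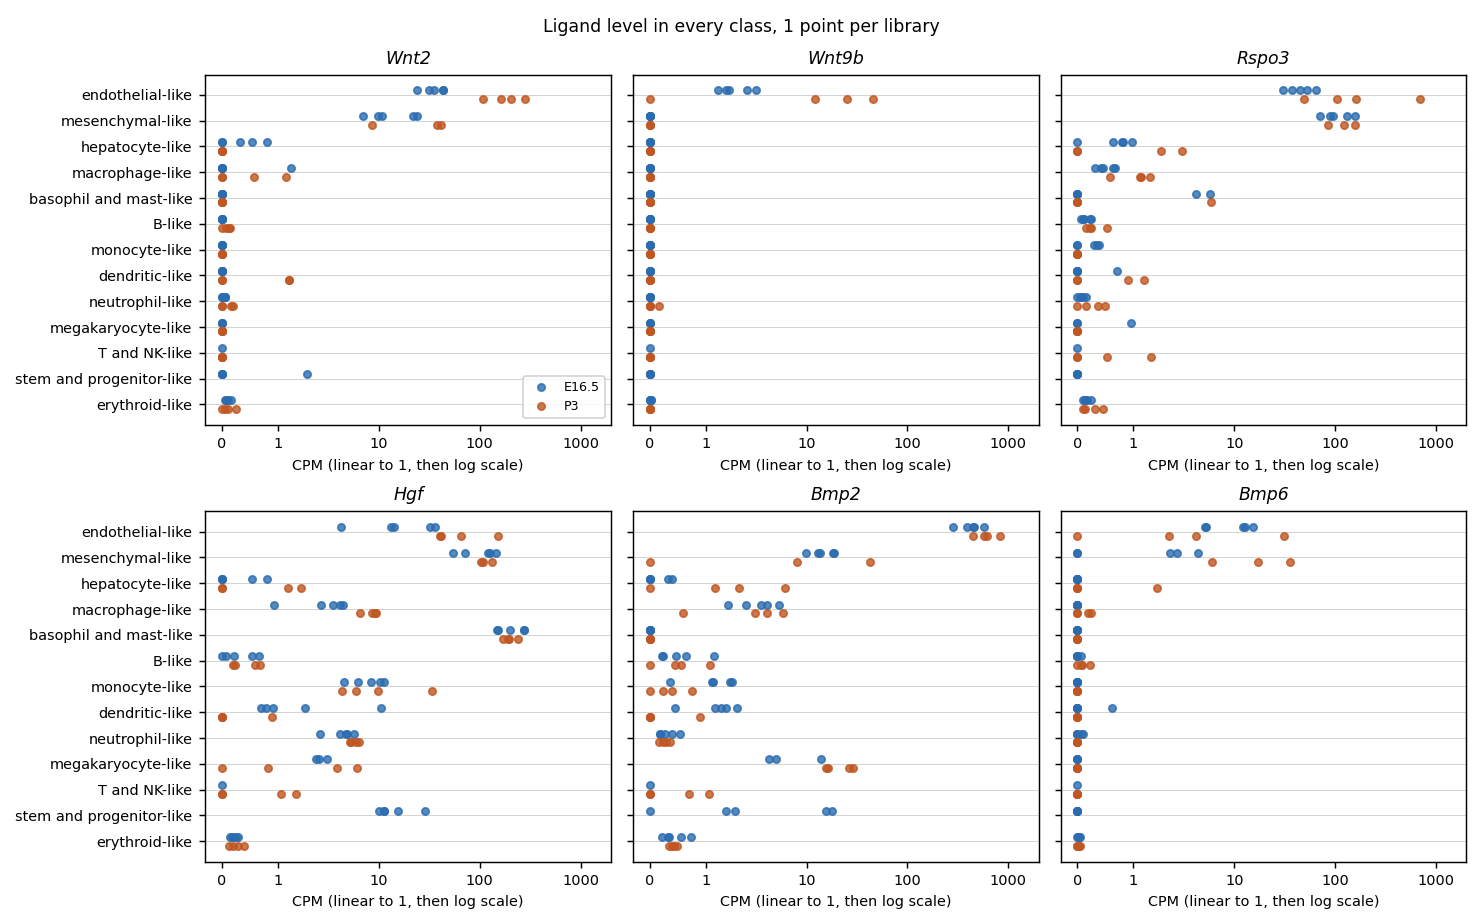
Levels of the 6 signals (CPM, linear near 0 and logarithmic above) by cell class, with a point for each library with at least 20 cells, E16.5 in blue and P3 in orange. Bmp2 points are highest in endothelial-like cells, and so are most Wnt2 and Wnt9b points. The Wnt2 points of endothelial-like and mesenchymal-like cells touch at E16.5, and a P3 endothelial-like Wnt9b point lies at 0. Rspo3 points are high in endothelial-like and mesenchymal-like cells. Hgf points are highest in basophil and mast-like cells among the classes as plotted, in which stellate-marked cells are not separate.

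Of the 6 signals, 4 rose from E16.5 to P3 in endothelial-like cells: Wnt2, Wnt9b, Rspo3 and Hgf. Bmp2 and Bmp6 did not pass the test. The background was 11.9% of 10529 genes higher at P3 in this class and 15.4% lower. Library values are given at E16.5 in the order Jag1+/+ replicate 1, shared library, Jag1Ndr/+ replicate 1, Jag1Ndr/Ndr replicate 1 and Jag1Ndr/Ndr replicate 2, and at P3 in the order A, B, C and D.

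Wnt2 stood at 43.2, 43.6, 34.8, 31.7 and 23.7 CPM at E16.5 and at 206, 107, 278 and 164 CPM at P3. Every P3 library was above every E16.5 library. The log2 change was 2.12 (SE 0.239, n = 5 against 4, adjusted p = 8.344e-07 by edgeR's quasi-likelihood test, Benjamini-Hochberg). In cells thinned to 1000 UMIs, at least 1 Wnt2 UMI was found in 2.85% of endothelial-like cells at E16.5 and 12.5% at P3, and in 0.00897% and 0.0162% of erythroid-like cells, which should lack it. Wnt9b, the rarer Wnt ligand in these counts, had 1, 3, 2, 3 and 2 UMIs at E16.5 and 20, 0, 6 and 2 at P3. That is 1.31 to 3.17 CPM at E16.5 and 45.3, 0, 24.9 and 12.2 CPM at P3, and library B at 0 (which allows up to 13.3 CPM for a count of 3) cannot be placed below library D. The log2 change of Wnt9b was 3.23 (SE 0.636, adjusted p = 0.0004393, same edgeR test), and without library A it fell under the minimum of 20 UMIs and was not tested.

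Rspo3 stood at 64.2, 52.1, 37.4, 44.4 and 30.5 CPM at E16.5 and at 689, 48.9, 162 and 103 CPM at P3. Library A was the highest at P3, and library B lay within the E16.5 range. The log2 change was 2.35 (SE 0.453, adjusted p = 0.0003596, edgeR's quasi-likelihood test, Benjamini-Hochberg). It was 0.84 (adjusted p = 0.0417) without library A and 1.21 (adjusted p = 0.00395) without A and B. After thinning, cells with a Rspo3 UMI made up 3.50% of endothelial-like cells at E16.5 and 14.9% at P3, and 0.0197% and 0.0283% of erythroid-like cells.

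Hgf stood at 13.1, 36.2, 14.2, 4.23 and 32.2 CPM at E16.5 and at 65.7, 40.0, 41.5 and 152 CPM at P3. The groups did not overlap, and library D was the highest. The log2 change was 1.37 (SE 0.418, adjusted p = 0.0133, edgeR's quasi-likelihood test, Benjamini-Hochberg). The call was lost without library D (0.97, adjusted p = 0.101), with libraries A and B alone at P3 (1.11, adjusted p = 0.11) and after the sub-clusters led by Col1a1 at E16.5 and by Adam23 and Esm1 at P3, each with at least 2 leading markers of another class, were also removed, a second removal chosen after the data were seen (1.07, adjusted p = 0.196). Under that last setting Wnt2, Wnt9b and Rspo3 kept their calls, at log2 changes of 2.20, 3.72 and 2.97. It took out 59 of the 87 P3 cells of library A and 37 of the 48 of library B, with a minimum of 5 cells per library. The cells left in A included 22 of the Fbln2-led sub-cluster described further on, which is rich in Rspo3 and Wnt9b. What this mix adds to the values was not tested.

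Bmp2 stood at 388, 567.9, 284, 456 and 444 CPM at E16.5 and at 614, 445, 572 and 821 CPM at P3, with overlapping groups, a log2 change of 0.19 and an adjusted p of 0.4397 by edgeR's quasi-likelihood test. Bmp6 stood at 5.16 to 15.3 CPM at E16.5 and at 2.27, 31.1, 4.15 and 0 CPM at P3, so library B alone was high at P3. Its log2 change was −0.60 (adjusted p = 0.4877, edgeR) and, without library B, −2.36 (adjusted p = 0.0291). Beside these values, hepatocyte markers summed to 1121 to 2127 CPM in endothelial-like cells at E16.5 and 1070 to 2977 CPM at P3, neutrophil markers to 394 to 1195 and 1216 to 6718 CPM, macrophage markers to 155 to 336 and 486.5 to 627 CPM, and megakaryocyte markers to 89.0 to 182 and 216 to 600.5 CPM. B markers summed to 35.9 to 64.3 and 71.2 to 315 CPM, and T and NK markers to 1.31 to 5.93 and 16.6 to 36.5 CPM. All of these lists but that of hepatocytes were higher at P3 without overlap. So were the class's own 12 endothelial markers, at 5423 to 7817 CPM at E16.5 and 12290 to 15060 CPM at P3. The part of all these lists in the stage differences was not tested. Fewer expressing cells and less RNA per cell cannot be told apart in sums of this kind.

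**Figure D2:**
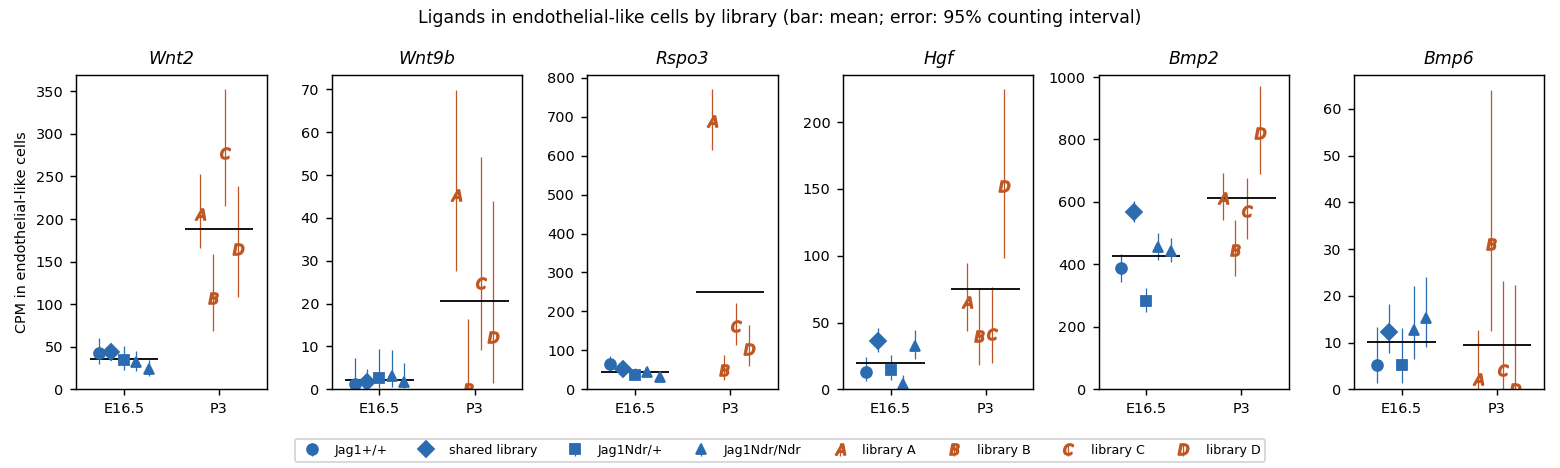
Level (CPM) of each signal in the endothelial-like cells of every library, with 95% counting intervals as error bars, E16.5 in blue and P3 in orange. All P3 points of Wnt2 and Hgf lie above the E16.5 points, library A is the highest for Rspo3 and Wnt9b, and the Bmp2 points of the stages overlap.

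Rspo3, Wnt9b and the highest Wnt2 levels were found together in 1 small endothelial-like sub-cluster at each stage. The genes leading it at both stages included Fbln2 and Fbn1, which encode matrix proteins, Edn1, the vasoconstrictor endothelin, and Rspo3 itself, although none of the 10 members had been used for clustering. It held 20 of 457 cells at E16.5 and 35 of 248 at P3, 22 of them from library A. It contained 189 of the 254 endothelial-like Rspo3 UMIs at E16.5 and 308 of 371 at P3, and 8 of 11 and 25 of 28 Wnt9b UMIs. It was given no vascular bed name, since none of its leading genes was among the markers listed for sinusoidal, arterial, other vascular or lymphatic endothelium.

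In this Fbln2-led sub-cluster, Rspo3 stood at 576 CPM at E16.5 and 1711 CPM at P3, and Wnt2 at 241 and 444 CPM. By library, Rspo3 was 600, 788, 792, 470 and 191 CPM at E16.5 and 2001, 474, 1420 and 483 CPM at P3, so the stages overlapped, with 1 to 7 cells per library at E16.5 and 2 to 22 at P3. Bmp2 was lower there than in the sinusoidal-marked sub-cluster led by Adam23, Fcgr2b and Clec4g, at 192 against 597 CPM at E16.5. At P3, Hgf was at 0 UMIs in the Fbln2-led sub-cluster, while the 2 largest sub-clusters held 79.0 and 108 CPM. Differences between sub-clusters are descriptions with no test.

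Wnt2 was spread more widely. At E16.5, it stood at 17.1 CPM in the Adam23-led sub-cluster, 17.7 CPM in the one led by Col1a1 and Dlk1, and 44.8 CPM in the dividing one led by Top2a and other mitotic genes. At P3, it stood at 120 CPM in the sub-cluster of libraries A and B and 219 CPM in that of C and D. The sub-cluster led by Gja5, a gap junction gene of arteries, had no Wnt2 UMI at either stage, 0 and 1 Rspo3 UMIs, and a Bmp2 level of 69.2 CPM at E16.5 and 78.2 CPM at P3. When the Fbln2-led sub-cluster was left out at both stages, Wnt2 and Rspo3 were still higher at P3 in the edgeR quasi-likelihood test, Rspo3 with a log2 change of 2.13 (adjusted p = 0.00109). Wnt9b, with most of its UMIs in that sub-cluster, had too few left to be tested.

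Single cells showed Wnt9b together with Wnt2 and Rspo3. All 8 endothelial-like cells with a Wnt9b UMI at E16.5 also had Wnt2 and Rspo3 UMIs, and 1 had Hgf. At P3, 18 cells had Wnt9b, of which 16 had Wnt2, 17 had Rspo3 and 0 had Hgf. Of 46 cells with Rspo3 at E16.5, 34 had Wnt2 and 8 had Hgf, beside 73 of all 457 cells with Hgf, and of 61 at P3, 43 had Wnt2 and 5 had Hgf, beside 48 of 248. Among all endothelial-like cells, Wnt2 was found in 92 of 457 at E16.5 and 79 of 248 at P3. The cells were not matched for depth, and these counts are given without a test.

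**Figure D3:**
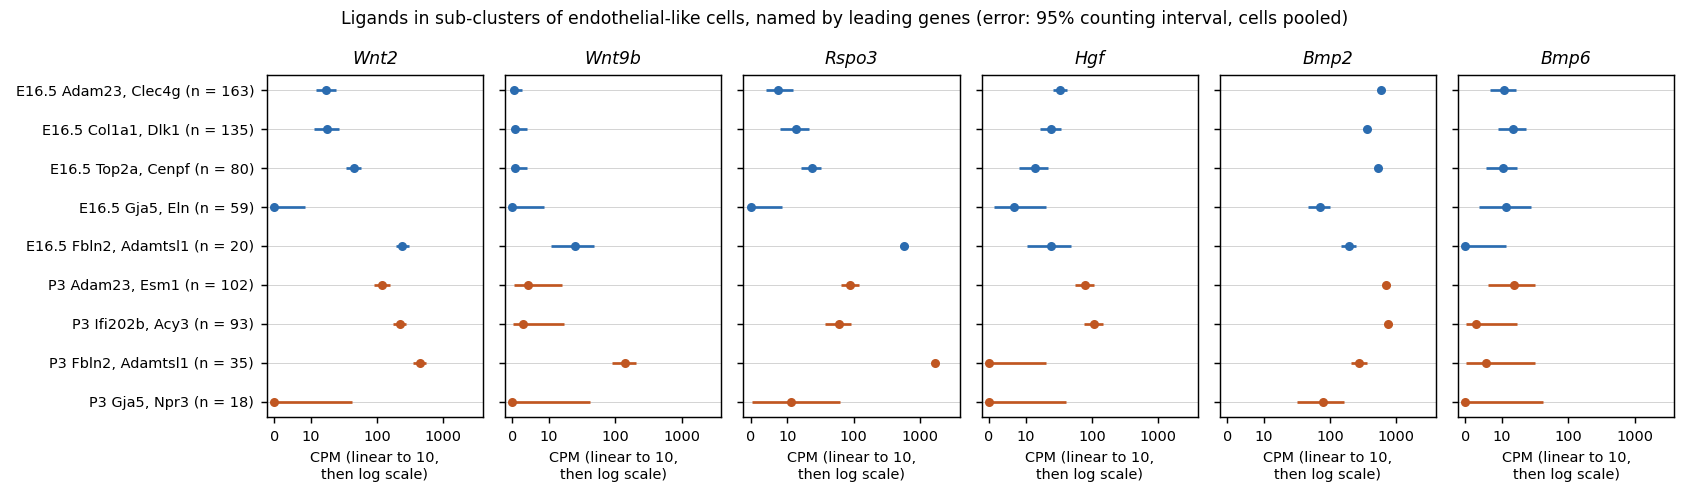
Level (CPM) of the signals in each endothelial-like sub-cluster at E16.5 and P3, with 95% counting intervals as error bars over all cells of the sub-cluster. Rspo3, Wnt9b and Wnt2 are highest in the sub-cluster led by Fbln2 and Adamtsl1, whereas Bmp2 is highest in the larger sub-clusters.

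Over all mesenchymal-like cells of the cleaned class, none of the 5 members tested (Wnt2, Rspo3, Hgf, Bmp2 and Glul) passed the test between the stages, against 17.7% of 9695 genes called in either direction. Before any sub-cluster was removed, Bmp2 was called lower at P3 (−3.39, adjusted p = 8.85e-05, edgeR), against −0.68 here. Rspo3 stood at 95.9, 131, 89.4, 70.4 and 157 CPM at E16.5 and at 156, 124 and 85.3 CPM in A, B and C at P3, with a log2 change of −0.14 (adjusted p = 0.7428, edgeR's quasi-likelihood test). Hgf stood at 127, 121, 71.1, 54.1 and 144 CPM and at 108, 134 and 102 CPM, with a log2 change of −0.22 (adjusted p = 0.6136). Library D held 14 mesenchymal-like cells, under the minimum of 20, and did not enter this fit, and its values were 496 CPM for Rspo3 and 409 CPM for Hgf. The class was mixed. Sub-clusters of it were led by heart and globin genes (Nppa, Hba-a1), by neutrophil genes (Camp, S100a9) and by keratin genes at E16.5, and by Elane, Spp1 and Krt18 at P3. In the first clustering, before any removal, a P3 cluster of 138 barcodes given to this class was led by Ins2 and Ins1, hormone genes of the pancreas. No E16.5 cluster was led by these genes. How many of these barcodes stayed in the cleaned class is not given. Neutrophil markers summed to 974 to 7674 CPM in mesenchymal-like cells at E16.5 and 1327 to 4869 CPM at P3, mesothelial markers to 291 to 969 and 1022 to 3380 CPM, cholangiocyte markers to 46.4 to 351 and 1109 to 2044 CPM, dendritic markers to 421 to 628 and 844 to 1832 CPM, and erythroid markers to 14.5% to 30.1% and 5.17% to 11.01% of UMIs.

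In the 1 mesenchymal-like sub-cluster per stage with stellate markers among its leading genes, Rspo3 and Hgf rose. This sub-cluster, led by Lhx2 at E16.5 (78 cells) and by Reln, Colec10 and Colec11 at P3 (42 cells), was looked at after the data were seen. Rspo3 stood there at 178, 152, 180, 135 and 273 CPM at E16.5 and at 687, 579, 324 and 783 CPM at P3. Hgf, itself a leading gene of the P3 sub-cluster, stood at 185, 152, 229.5, 109 and 218 CPM at E16.5 and at 539, 1113, 486 and 574 CPM at P3. Neither gene's groups overlapped. The log2 change was 1.31 (SE 0.308, adjusted p = 0.000903) for Rspo3 and 1.49 (SE 0.305, adjusted p = 0.000209) for Hgf by the same edgeR test, with 6 to 24 cells per library and 4.15% of 6114 genes called higher. With the dividing sub-cluster of P3 also counted in, the changes were 0.72 (adjusted p = 0.101) and 0.73 (adjusted p = 0.0932).

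The stage change of Rspo3 was larger in endothelial-like than in mesenchymal-like cells over all cells of the cleaned classes. The difference was 2.52 on the log2 scale (SE 0.417, adjusted p = 9.513e-05, edgeR's quasi-likelihood test of the interaction with the library as a block, n = 5 against 3), and 0.982% of 11707 genes were called with a more positive change in endothelial-like cells. It was called in 18 of 21 settings. Those that lost the call included the one without library A (1.14, adjusted p = 0.415, edgeR) and the one against the stellate-marked sub-cluster alone (1.09, adjusted p = 0.197, edgeR). Without A and B, the difference was 2.25, with library C alone standing for P3. The same difference was 1.33 (adjusted p = 0.234) for Wnt2, called in 2 of 21 settings, and 1.28 (adjusted p = 0.0800) for Hgf, called in 5 of 21, with a range of 0.21 to 1.70. After the second removal of sub-clusters, that of Wnt2 was called (2.35, adjusted p = 0.0136) and that of Rspo3 was 1.83 (adjusted p = 0.000876), both by edgeR.

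Among the Wnt response genes, Glul rose in hepatocyte-like cells from E16.5 to P3, whereas Tbx3 and Lgr5 did not pass the test there and Axin2 had too few UMIs to be tested. In hepatocyte-like cells Glul stood at 173, 146, 104, 152 and 114 CPM at E16.5 and at 365, 321, 308 and 212 CPM at P3. The groups did not overlap, and library D was the lowest at P3. The log2 change was 1.25 (SE 0.185, n = 5 against 4, adjusted p = 4.561e-05, edgeR's quasi-likelihood test, Benjamini-Hochberg), against 18.9% of 10744 genes called higher at P3 in this class and 18.5% called lower. After thinning to 1000 UMIs, 12.3% of hepatocyte-like cells had a Glul UMI at E16.5 and 25.1% at P3, compared with 4.33% and 7.26% of erythroid-like cells. After the second removal, which took out the sub-clusters led by globin genes and Pf4, the log2 change of Glul was 1.10 (SE 0.195, adjusted p = 0.0002638, edgeR). Erythroid markers took 5.92% to 11.5% of hepatocyte-like UMIs at E16.5 and 1.29% to 1.73% at P3. Other marker lists also moved without overlap in these cells: neutrophil markers summed to 275 to 896 CPM at E16.5 and 950.1 to 2090 CPM at P3, dendritic markers to 83.8 to 146.5 and 176 to 340.2 CPM, B markers to 16.2 to 57.2 and 68.5 to 214 CPM, T and NK markers to 2.42 to 5.61 and 16.96 to 64.2 CPM, and megakaryocyte markers to 12.9 to 19.8 and 27.2 to 154 CPM, while mesenchymal markers went from 74.4 to 149.9 down to 18.7 to 57.4 CPM. In the first clustering at P3, before any removal, a cluster of 973 barcodes given to this class was led by Ctrb1 and Try5, digestive enzyme genes of the pancreas. The part of these RNAs in the Glul difference was not tested.

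Tbx3, the transcription factor, stood at 3.22, 11.6, 9.66, 4.87 and 12.8 CPM in hepatocyte-like cells at E16.5 and at 11.2, 11.9, 6.04 and 8.56 CPM at P3, with a log2 change of 0.25 (adjusted p = 0.6693, edgeR's quasi-likelihood test). Its stages overlapped. Lgr5 had 24 UMIs in hepatocyte-like cells at E16.5 and 4 at P3, with a log2 change of −0.64 (adjusted p = 0.5917). Axin2 had 10 and 7 UMIs in hepatocyte-like cells, 0 to 2.17 CPM at E16.5 and 0 to 6.42 CPM at P3, so a change was not detectable at this depth.

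Glul, Lgr5 and Axin2 were each higher in a blood cell class than in hepatocyte-like cells in at least 1 stage. Glul averaged 341 ± 40.6 CPM in macrophage-like cells at E16.5 and 514 ± 34.1 CPM at P3, above 138 ± 28.4 and 302 ± 64.6 CPM in hepatocyte-like cells. In endothelial-like cells it averaged 168 ± 42.5 and 233 ± 65.3 CPM, a range that overlapped the hepatocyte-like one at both stages, and its stage change there was 0.14 (adjusted p = 0.6252, edgeR's quasi-likelihood test). Of the 1256 macrophage-like cells at E16.5, 600 formed a sub-cluster led by Cldn13, Rhag and Rhd, with no macrophage marker among its leading genes and 28.6% erythroid UMIs, just under the 30% limit for removal. Split by the first clustering, Glul stood at 453 CPM in a cluster of 642 of these cells, with Vsig4, a gene of resident macrophages, at 165 CPM, and at 77.7 CPM, below the hepatocyte-like level, in a cluster of 589 cells, with Vsig4 at 15.2 CPM. The class mean at E16.5 mixes these, so no change between the stages is read from it. Lgr5 averaged 15.6 ± 3.01 CPM in B-like cells at E16.5 and 19.1 ± 4.26 CPM at P3, over 865 and 707 UMIs, against 2.07 ± 1.45 and 1.22 ± 1.49 CPM in hepatocyte-like cells. Among P3 B-like clusters, Lgr5 ranged from 0.902 CPM in cluster 21, in which the mature B cell gene Ms4a1 stood at 884 CPM, to 31.7 CPM in cluster 9, a cluster of 2424 cells. Axin2 averaged 7.75 ± 3.83 CPM in basophil and mast-like cells at E16.5 and 7.60 ± 5.61 CPM at P3, on 26 and 10 UMIs, and 2.51 ± 1.67 and 16 ± 18.3 CPM in mesenchymal-like cells, on 5 and 13 UMIs.

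**Figure D4:**
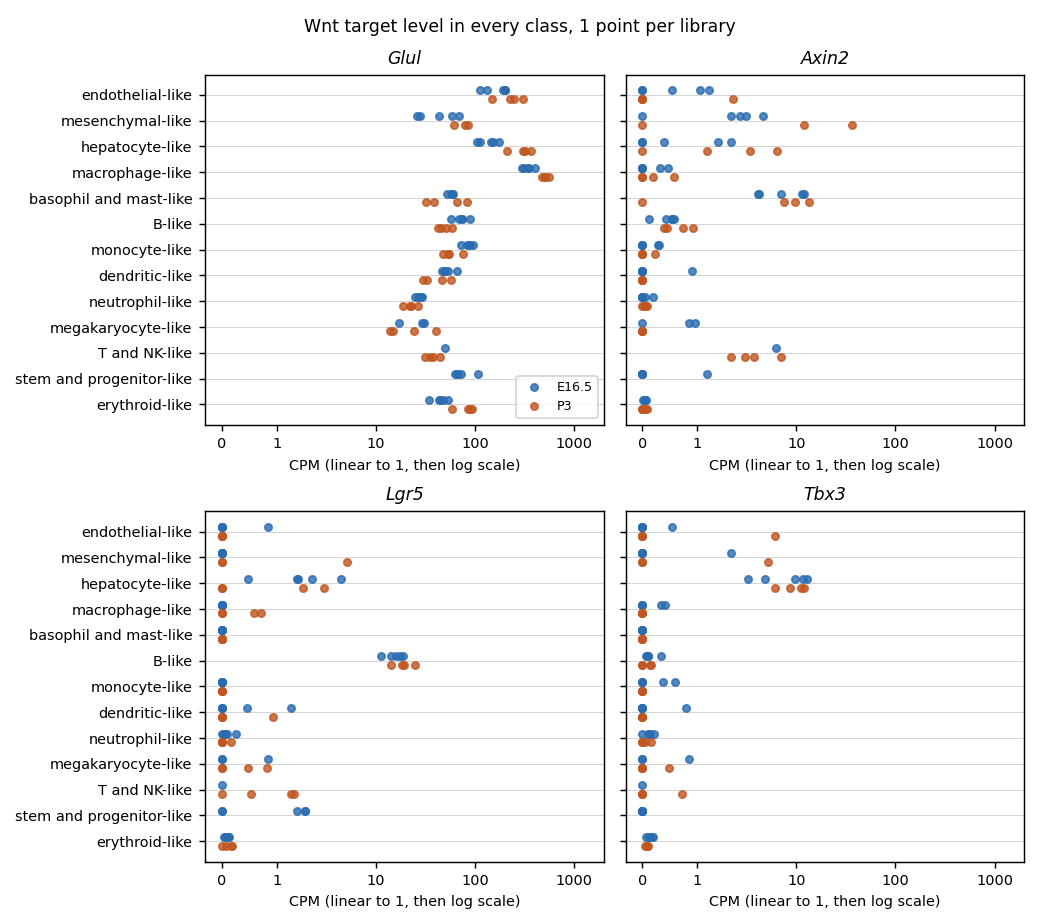
Levels of Glul, Axin2, Lgr5 and Tbx3 (CPM, linear near 0 and logarithmic above) by cell class, with a point for each library with at least 20 cells, E16.5 in blue and P3 in orange. Glul points are highest in macrophage-like cells, Lgr5 points in B-like cells and E16.5 Tbx3 points in hepatocyte-like cells.

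The rise of Glul from E16.5 to P3 was larger in hepatocyte-like than in endothelial-like cells, by 1.10 on the log2 scale (SE 0.228, adjusted p = 0.0001193, edgeR's quasi-likelihood test of the interaction with the library as a block), while 7.22% of 12030 genes were called with a more positive change in hepatocyte-like cells. Few hepatocyte-like cells held many Glul transcripts. At least 10 Glul UMIs were counted in 14 of 537 cells at E16.5, where the highest cell had 14, and in 16 of 518 at P3, where the highest had 43. Of the 16 cells at P3, 10 came from library A, 3 from B, 2 from C and 1 from D. Beside a Glul level of 1079 CPM against 254.5 CPM in the other cells, these 16 had a higher level of all 11 pericentral genes with at least 20 UMIs and of 4 of 15 periportal genes, while 54.9% of 7763 genes were higher in them. In the 14 cells at E16.5, 8 of 9 pericentral and 7 of 13 periportal genes were higher, against 52.7% of 10461 genes. Among the pericentral genes higher at P3 were Cyp2e1, a pericentral cytochrome P450 (1362 against 507 CPM), Oat, a pericentral aminotransferase (99.5 against 29.2 CPM), and Rhbg, a pericentral ammonium transporter (42.1 against 10.2 CPM). Cyp2f2, a periportal cytochrome P450, was lower in the 16 cells (7.65 against 35.8 CPM), while the periportal Cps1, of the urea cycle, was higher (1033 against 553 CPM). The 10 UMI minimum was chosen after the data were seen, it favours deep cells (a median of 17800 UMIs against 2435), and the comparison has no test.

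In the 8 other classes, 8 of 33 member and class pairs were called between the stages by the same edgeR test, a smaller share than the 39% of 91346 gene and class pairs called there in either direction. Glul fell in B-like cells (−0.77), from 72.7 ± 11.8 to 49.2 ± 7.11 CPM, in monocyte-like cells (−0.91), from 85.4 ± 8.78 to 57.9 ± 12.1 CPM, and in neutrophil-like cells (−0.49). The B-like class held different cells at the stages: Ms4a1, a gene of mature B cells, was at most 28.8 CPM in any E16.5 cluster, but 1747, 884 and 684 CPM in P3 clusters of 2031, 896 and 93 of the 8169 cells. Bmp2 rose in megakaryocyte-like cells (1.48, adjusted p = 0.01333), from 7.65 ± 5.31 CPM (n = 3) to 21.7 ± 6.78 CPM. Hgf was called higher in macrophage-like cells (1.21, adjusted p = 0.01407), at 3.13 ± 1.40 and 8.37 ± 1.26 CPM, in the class that held the Cldn13-led sub-cluster at E16.5. The last 3 calls had adjusted p-values just under 0.05 in edgeR on few UMIs: Hgf in dendritic-like cells (22 UMIs at E16.5 and 1 at P3, with 1 E16.5 library at 10.6 CPM and a median of 0.901 CPM), Bmp2 in monocyte-like cells (19 and 3 UMIs) and Rspo3 in neutrophil-like cells (7 and 27 UMIs), a class that at P3 held a sub-cluster of 132 cells led by the mesenchymal genes Sparc and Dcn.

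In hepatocyte-like cells, genes of the Bmp response moved in both directions. Of 7 Bmp target genes tested, 3 rose and 2 fell (median log2 change 0.46, against −0.05 over all genes), beside 18.9% of all genes called higher in this class and 18.5% called lower, a background that holds for each list that follows. Hamp, hepcidin, rose from 80.2 ± 72.1 CPM to 1217 ± 397 CPM (log2 change 4.02, SE 0.46, adjusted p = 2.87e-06, edgeR's quasi-likelihood test, Benjamini-Hochberg). Id3 (2.28) and Id1 (1.15), transcriptional regulators induced by Bmp signals, also rose, with values of 0.51 (not called) and 0.54 (not called) before any sub-cluster was removed, while the feedback inhibitor Smad6 (−3.48) and the decoy receptor Bambi (−2.53) fell. Of 15 Bmp receptor and Smad genes, 5 rose, among them Tfr2 (1.74), an iron sensing receptor, and Smad9 (3.35), and 1 fell, Acvr1 (−2.68), a type I receptor. Both Bmp inhibitors that were called, Fst and Twsg1, fell (−1.38 and −1.20), out of 3 tested. Of 4 genes tested from the list of other Bmp and Gdf genes, 1 was higher and 2 were lower (Bmp1 1.02, Gdf15 −3.24, Bmp7 −2.27). Bmp1 encodes a protease and not a ligand. Hamp, Tfr2, Smad9, Acvr1, Bmp1 and Gdf15 were called in every setting tested, Id3, Smad6, Bambi, Fst and Twsg1 in 21 of 22, and Id1 and Bmp7 in 20 of 22.

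Of 12 pericentral genes tested in hepatocyte-like cells besides the members, 7 rose and 0 fell (median 1.01). Cyp2e1 rose from 15.8 ± 16.6 to 607 ± 170 CPM (log2 change 5.53, adjusted p = 3.15e-08), and Cyp1a2, called higher, went from 1 UMI in the 5 E16.5 libraries to 17.4 to 93.6 CPM at P3. Of 15 periportal genes tested, 8 rose and 2 fell (median 0.97), with Pck1, of gluconeogenesis, at 7.26, Cyp2f2 at 2.77 and Alb at −1.40, while Gldc (−0.46) was called in only 7 of 22 settings. Of 15 Wnt receptor and secretion genes tested, 1 rose and 7 fell (median −1.01), with the receptors Fzd7 (−3.32) and Fzd5 (−2.15) and the ubiquitin ligase Znrf3 (−1.50) among the lower ones and Porcn, which acylates Wnt ligands, higher (1.67). Of 16 transduction genes, 2 fell, Ctnnb1, which encodes β-catenin (−1.10), and Tcf7l2, its DNA-binding partner (−1.04). Among 4 Wnt inhibitors, Wif1, a secreted Wnt inhibitor, rose (2.05) and Ctnnbip1, which blocks β-catenin, fell (−1.68). Wnt4, the 1 other Wnt ligand tested, rose (4.44), from 1.15 ± 1.29 to 21.2 ± 12.4 CPM. Of 10 genes of the Hgf list, 2 rose: Mst1, an Hgf-like protein (1.17), and Hpn, a protease that activates Hgf (1.03).

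**Figure D5:**
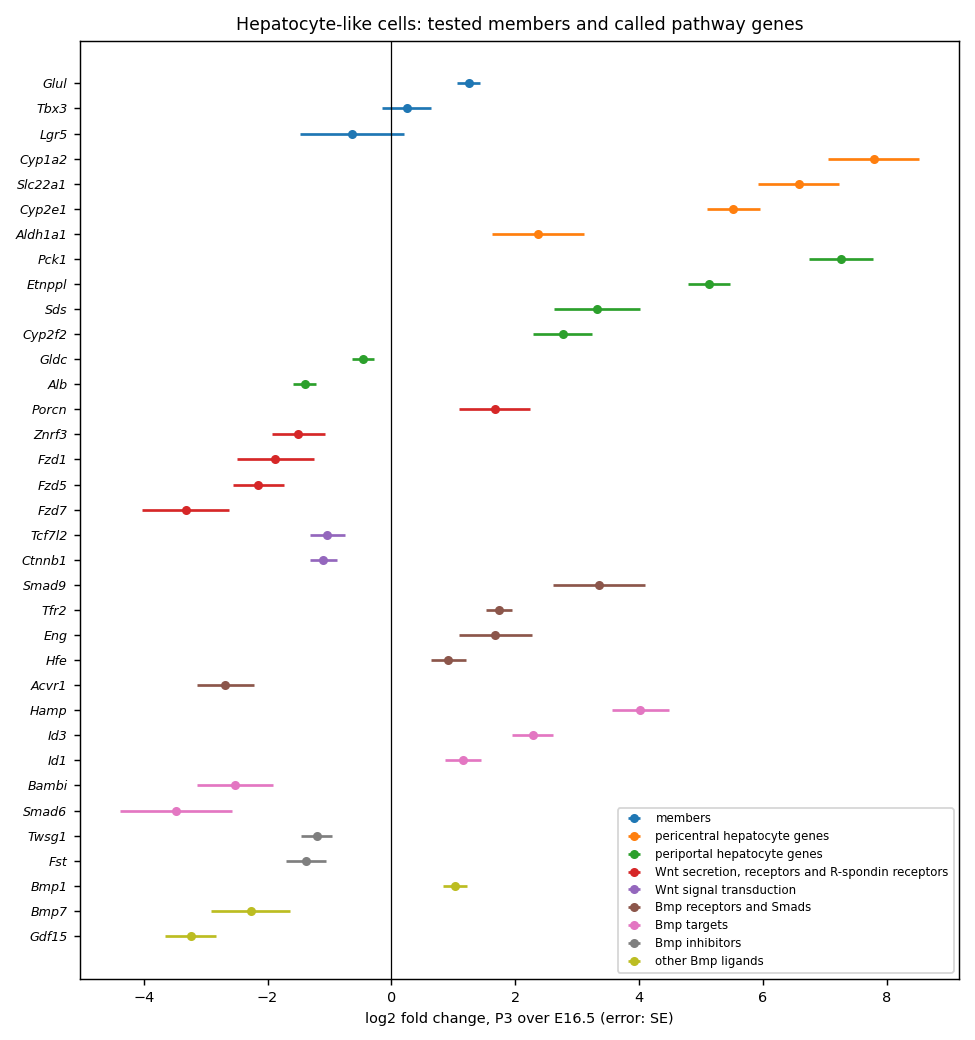
Log2 fold change of P3 over E16.5 in hepatocyte-like cells (x axis, points, with SE bars) for the tested members and for called genes of the pathway lists, coloured by list. Glul lies at 1.25 and Hamp at 4.02 on the higher side, Tbx3 at 0.25 and Lgr5 at −0.64 have bars that cross 0, and the point of Cyp1a2 rests on 1 UMI at E16.5.

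In endothelial-like cells, 3 of 12 Bmp receptor and Smad genes rose and 0 fell: Eng (1.21), Acvrl1 (0.84), both of the endothelial receptor complex, and Hfe (0.76), beside 11.9% of all genes called higher in this class and 15.4% called lower. Eng was called in all 23 settings tried, Acvrl1 in 13 and Hfe in 15. Eng is also among the 12 endothelial markers that named this class. Their summed level itself went from 5423 to 7817 CPM at E16.5 to 12290 to 15060 CPM at P3. Of 8 Bmp targets, 3 rose, Id1 (0.56, called in 15 of 23 settings), Id3 (0.55, in 17) and Hamp (3.76, on 24 UMIs), and Hamp, Pck1 and Alb moved the same way in hepatocyte-like cells. Whether hepatocyte RNA had a part in this was not tested. Bmp4, another ligand, was called higher (4.31, on 29 UMIs), at 0 to 1.69 CPM at E16.5 and 0 to 52.1 CPM at P3. Its P3 mean of 15.2 ± 24.7 CPM rested mostly on 1 library, and 19 settings could test it. Of 9 Wnt receptor and secretion genes, 2 fell (Fzd5 −3.06, and Lgr4, an R-spondin receptor, −1.71), and of 15 transduction genes 1 rose (Axin1 1.12) and 2 fell (Tcf7l2 −0.55, Ctnnb1 −0.54). Fzd5 and Ctnnb1 were called in 22 of 23 settings, Lgr4 in 15, Axin1 in 13 and Tcf7l2 in 12. The median over all genes tested was −0.01.

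Over all mesenchymal-like cells of the cleaned class, where 17.7% of genes were called in either direction, the 3 other Wnt and R-spondin ligands tested rose: Wnt5a (1.84), Wnt4 (1.62) and Rspo1 (1.03). Wnt4 was called in 21 of 23 settings, Wnt5a in 17 of 21 and Rspo1 in 11 of 21. Mesothelial and cholangiocyte markers were also higher at P3 in this mixed class, and their part in the changes of these 3 ligands was not tested. Without libraries A and B, when library C alone stood for P3 in this class, the Wnt5a value was −0.07. Wnt4 was also called in the stellate-marked sub-cluster (2.18), where Wnt5a and Rspo1 had too few UMIs to be tested, beside 88 and 351 UMIs in the class. Met, the receptor of Hgf, rose in the class (2.09), from 12.4 ± 6.03 to 69.8 ± 30.5 CPM, beside the cholangiocyte and mesothelial markers that were also higher at P3 in these cells, whose part in it was not tested, and had too few UMIs to be tested in that sub-cluster. Of 7 Wnt inhibitors, 3 rose (Dkk3 1.53, Nkd1 0.99, Sfrp2 0.86) and 1 fell (Sfrp1 −1.11), and these were called in 10 of 21, 17 of 23, 12 of 22 and 13 of 23 settings. Among the Bmp inhibitors, Nbl1 rose (2.02). Gdf2, a Bmp ligand known from stellate cells, fell in the cleaned class (−0.95) and was called higher in the stellate-marked sub-cluster (0.83), so its direction depended on which cells were counted.

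At E16.5, the Jag1Ndr/Ndr libraries were compared with the other 3 in 11 classes, and no member passed the test. No class and gene pair of 118600 was called by edgeR's quasi-likelihood test, Benjamini-Hochberg (a background of 0%), 2546 fell under 0.05 before adjustment, and by DESeq2 12 were called, of which 0 were members. In simulated counts for endothelial-like cells of this comparison (10322 genes), 48% of 2-fold and 98% of 4-fold changes were recovered, and 8.75% of calls were false. The changed genes there were well above the minimum of 20 UMIs, and the adjustment ran within this class alone. These rates therefore do not hold for members with few UMIs or for the adjustment over 118600 pairs. Of 41 member and class pairs, 2 fell under 0.05 before adjustment in edgeR, Wnt2 in endothelial-like and Hgf in dendritic-like cells. Wnt2 in endothelial-like cells was 27.7 ± 5.64 CPM (n = 2) in the Jag1Ndr/Ndr libraries and 40.5 ± 4.96 CPM (n = 3) in the others, without overlap (log2 change −0.59, adjusted p = 1, edgeR). Hgf in dendritic-like cells had a log2 change of −2.32 (adjusted p = 1, edgeR), where 1 library held 10.6 CPM and the median was 0.901 CPM. Rspo3 in endothelial-like cells was 37.4 ± 9.81 CPM against 51.2 ± 13.4 CPM (−0.48), and Bmp6 14.0 ± 1.82 against 7.54 ± 4.06 CPM (0.71), and both also had an adjusted p of 1 in edgeR. Of 14 member and class pairs with at least 20 UMIs in the 3 main classes, Wnt2 and Bmp6 in endothelial-like cells were the 2 whose groups did not overlap, near the 15.3% of 29000 gene and class pairs without overlap. Glul in hepatocyte-like cells differed by −0.03 on the log2 scale.

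At P3, only libraries C (Jag1Ndr/Ndr) and D (Jag1Ndr/+) had 1 label each, so there is no replicate check and no test. Of 30 member and class pairs, 8 had at least 20 UMIs, and 4 of these had 95% counting intervals that did not overlap, against 7.42% of 8656 gene and class pairs (6.11% in endothelial-like, 14.1% in mesenchymal-like and 6.57% in hepatocyte-like cells). All 4 were higher in D. Before any sub-cluster was removed from the classes, 0 pairs of members were apart. Bmp2 in endothelial-like cells was 572 CPM (interval 481 to 676) in C and 821 CPM (688 to 972) in D. Hgf was 41.5 CPM (19.9 to 76.3) against 152 CPM (98.4 to 224) in endothelial-like cells and 102 CPM (52.9 to 179) against 409 CPM (224 to 686) in mesenchymal-like cells. Rspo3 in mesenchymal-like cells was 85.3 CPM (40.9 to 157) against 496 CPM (289 to 795), with 27 cells in C and 14 in D. Within the stellate-marked sub-cluster the same libraries had 324 and 783 CPM of Rspo3 and 486 and 574 CPM of Hgf, from 8 cells each. Glul in hepatocyte-like cells was 308 CPM (251 to 374) in C and 212 CPM (172 to 258) in D, with overlapping intervals. These intervals cover counting error only.

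The genes whose pattern over E16.5 classes and libraries was most like that of each member were found by Pearson's r of log2(CPM + 10) over 59 pairs of 13 classes and 5 libraries. Pairs of 1 library share its cells' depth and background, so r is a description. Fat4 (r = 0.979), an atypical cadherin, was closest to Wnt2. Sele (0.988), the endothelial adhesion molecule E-selectin, was closest to Wnt9b, and Adamts9 (0.986), a secreted protease, to Rspo3. In endothelial-like cells Wnt9b averaged only 2.43 CPM in the Jag1Ndr/Ndr libraries and 1.83 CPM in the others, below the 10 CPM added. Its r thus rests on few UMIs and says little beyond the class in which it was found. Flt4 and Sox18 (both 0.979), a receptor and a transcription factor of endothelium, were closest to Bmp2, and Adam23 (0.959) to Bmp6. Csf1 (0.93), a macrophage growth factor, was closest to Hgf. For the response genes, the closest were Tmem140 (0.866) for Glul, Zbtb16 (0.843) for Axin2, Gm15406 (0.96) for Lgr5 and C4bp (0.969), a complement gene of hepatocytes, for Tbx3.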

How the data were processed

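The values the authors deposited are counts of UMIs per gene and cell barcode, 1 matrix per labelled sample. Per the submitters' processing notes, Cell Ranger 2.1.1, R 4.1.2 and Seurat were used with the mm10 genome build, while the file headers name 10x software 3.0.2 for P3 and 3.1.0 for E16.5. Total UMIs per deposited matrix ranged from 30087760 to 288658950. Barcodes with under 1000 UMIs or over 15% mitochondrial UMIs were left out, and matrices with identical or shared barcodes were reduced to 5 separate libraries at E16.5 and 4 at P3, A's barcodes being taken out of C.

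Likely doublets (9.86% to 13.5% of barcodes at E16.5 and 4.11% to 9.50% at P3) were left out, and the rest were clustered per stage with scanpy 1.11.5 (2000 variable genes without the members, 30 principal components, 15 neighbours, Leiden resolution 1.0, igraph 0.11.9, Python 3.11.15). Clusters were named "X-like" from marker lists. Sub-clusters with over 30% erythroid UMIs, or with at least 2 leading markers of another class and more than of their own, were removed before the comparisons. This removal ran once, and sub-clusters that met the rule when the cells were clustered again stayed in the classes, except in the second removal. Classes rebuilt in this way can differ from those of the study.

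Counts were summed per library and class with at least 20 cells, and genes with at least 20 UMIs in a fit were tested with edgeR 4.0.16 (TMM scaling, quasi-likelihood test, R 4.3.3). The SE of a log2 change was worked back from this test, as the absolute log2 change divided by the square root of the F statistic. Benjamini-Hochberg adjustment ran over all class and gene pairs of a comparison, with a threshold of 0.05. All members are named whatever their values. Of each pathway list, at most 4 called genes per direction and class were eligible to be named, by absolute fold change, with the 3 genes most like each member. Some items are not reported here. The 10 members and the lists were chosen with earlier results of these data known. Intervals are exact Poisson intervals at 95%, and they and the floor of 3 UMIs cover counting error only. The test was tried on simulated counts: for the stage comparison in endothelial-like cells (10529 genes) 50% of 2-fold and 93% of 4-fold changes were recovered, and 6.54% of calls were false. Here too the changed genes were well above the minimum of 20 UMIs, and the adjustment ran within this class alone. The rates therefore do not hold for members with few UMIs or for the adjustment over all class and gene pairs.

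Alternatives were DESeq2 1.42.0, RLE factors, other filters on UMIs, doublets kept, globin and mitochondrial genes left out, the replicate block and leaving out libraries. The naming and cleaning rules, the tests of differences between classes, the settings without the Fbln2-led sub-cluster, with the class before any removal, with libraries A and B alone, with the stellate-marked sub-cluster and with a second removal, the minimum of 10 Glul UMIs and the looks at single blood cell clusters were chosen after seeing the data.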

Additional observations from a re-analysis of the deposited data

Results flagged for a closer look

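The stage change of Rspo3 differed between endothelial-like and mesenchymal-like cells by 2.52 on the log2 scale in a test of the difference itself (adjusted p = 9.513e-05, edgeR's quasi-likelihood test). It was called in 18 of 21 settings, and those that lost the call included the ones without library A and against the stellate-marked sub-cluster alone. Without A and B, library C alone stood for P3. The stage change of Glul differed between hepatocyte-like and endothelial-like cells by 1.10 (adjusted p = 0.0001193, same test) and was called in all of its alternatives. No library of the 22 groups of 4 or 5 libraries examined, members with at least 20 UMIs in the 3 classes, lay far from the others by Dixon's criterion. Rspo3 in endothelial-like cells at P3, with library A at 689 CPM and the next at 162 CPM, was among the groups under the critical value, and Bmp6 there was under the UMI minimum and not examined. With 4 libraries this criterion has little power, and the Rspo3 log2 change fell from 2.35 to 0.84 when library A was left out. What lies behind either difference between classes was not tested.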

How the results depend on the processing

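Wnt2 was called higher at P3 in endothelial-like cells in all 23 settings (1.90 to 2.36), Wnt9b in all 19 that could test it (2.73 to 3.72), and Glul in hepatocyte-like cells in all of its settings (0.98 to 1.41). The settings without library A and without the Fbln2-led sub-cluster were among those that left too few Wnt9b UMIs for a test. Leaving out 1 library at a time gave 3 to 5 called members in endothelial-like cells, 0 in mesenchymal-like and 1 in hepatocyte-like cells, 0 genotype pairs, 12 to 13 highest-class calls and 68 to 88 other pathway genes (87 in full, 50 without A and B). With no filter on low counts, 2 members were called in mesenchymal-like and 2 in hepatocyte-like cells. Apart from Glul in hepatocyte-like cells, these had too few UMIs to enter the main comparison. Before any sub-cluster was removed, 2 were called in mesenchymal-like cells, Bmp2 (lower at P3) and a member with too few UMIs for the main comparison, and 0 pairs of C and D were apart. With the stellate-marked sub-cluster alone 2 were called, Rspo3 and Hgf. The Rspo3 difference between classes ranged from 1.14 to 3.24 with 1 library left out, and was 2.25 without A and B (library C alone at P3) and 1.09 with the stellate-marked sub-cluster. The cause of these changes was not tested.

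Values changed sign as follows, all of them uncalled in the main comparison except Wnt5a and Gdf2. Before any removal, the stage changes were −0.02 (Bmp2, endothelial-like), −0.14, 0.23, 0.13 and −0.32 (Wnt2, Rspo3, Hgf and Glul, mesenchymal-like) and 0.26 (Lgr5, hepatocyte-like), and the genotype changes −0.07 (Bmp2, endothelial-like), 0.16 and −0.11 (Hgf and Glul, mesenchymal-like). Without A and B, they were −0.18 (Glul, endothelial-like), −1.06 and 1.19 (Wnt2 and Bmp2, mesenchymal-like), −0.18 (Tbx3, hepatocyte-like) and −0.07 (Wnt5a, mesenchymal-like), and with A and B alone 0.01 (Rspo3, mesenchymal-like). The mesenchymal-like values without A and B rest on library C alone at P3, which held 1 Wnt2 UMI and 5 Bmp2 UMIs there. With the stellate-marked sub-cluster, Wnt2 gave −0.12, Rspo3 1.31, Hgf 1.49 and Gdf2 0.83, of which the last 3 were called. After the second removal, Bmp2 gave −0.33 and Glul −0.09 in endothelial-like cells, and Rspo3 0.72, Hgf 0.73 and Gdf2 0.08 in mesenchymal-like cells.

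With 1 library left out, the stage change ranged from −0.01 to 0.31 for Glul in endothelial-like and from −0.38 to 0.06 for Rspo3 in mesenchymal-like cells. The genotype change ranged from −2.44 to 0.40 (Hgf) and −0.04 to 0.33 (Bmp2) in endothelial-like cells, from −0.69 to 0.59 (Rspo3), −1.07 to 0.47 (Hgf) and −0.14 to 0.97 (Glul) in mesenchymal-like cells, and from −0.22 to 0.13 (Glul) and −0.85 to 0.59 (Tbx3) in hepatocyte-like cells. With the replicate block, the genotype change was −0.09 for Rspo3 in mesenchymal-like and −0.04 for Tbx3 in hepatocyte-like cells, 0 genotype pairs were called, 4, 0 and 1 members were called by stage in endothelial-like, mesenchymal-like and hepatocyte-like cells, and 82 other pathway genes. Deviations of same-numbered libraries correlated with r from −0.19 to 0.298 over the 3 classes, all positive in hepatocyte-like cells (0.00835 to 0.298), and not every pair was over 0.1. The deviations of the Jag1Ndr/Ndr libraries from their own mean are mirror images, so these r values are tied to each other and cannot decide on pairing. The numbers were thus not shown to pair the libraries. Axin2, Wnt9b and Lgr5 rest on few UMIs, and low depth limits what can be read from them.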
